A study of Mus musculus with 10 samples.

Results

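The Schlafen genes described here are the 7 rows of the deposited liver count table whose symbols are Slfn1, Slfn2, Slfn3, Slfn4, Slfn5, Slfn8 and Slfn9, out of 54532 genes in all. They were chosen by name, with their difference between the 2 treatment groups already in view, so that difference is given as a description, and the test calls listed once below support nothing. The study sequenced RNA from livers of mice that received napabucasin (BBI608), a quinone known as a blocker of the transcription factor STAT3, or the vehicle alone, and asked which transcripts of the liver microenvironment respond to the drug. The napabucasin group (5 libraries) was dosed orally at 20 mg per kg body weight each day for 7 days. The vehicle group (5 libraries) received 1% NaCMC, a cellulose-based suspending agent, by the same route and for the same time. The mice were assigned to the groups at random, and both groups were housed alike with free food and water. The labels used here give no genotype, strain, sex or age, and no sign that animals were pooled. They call the libraries biological replicates and name no batch. All p-values given here measure only the spread between these 10 libraries.

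Schlafen proteins are vertebrate regulators of growth and of antiviral defence that are named for the sleep-like growth arrest that the first member imposed on T cells. Mouse members fall into short forms (Slfn1 and Slfn2), intermediate forms (Slfn3 and Slfn4) and long forms that carry a helicase-like region (Slfn5, Slfn8 and Slfn9). Many are induced by interferons, and they are best known from lymphocytes and myeloid cells, while the liver is made up mainly of hepatocytes.

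Library totals ran from 14124484 to 17759967 counts. Mitochondrial genes took 19.0% of the counts in vehicle replicate 1 and 7.03% to 8.78% in the other vehicle libraries. They took 9.03% to 19.9% in napabucasin libraries, each above every vehicle library but replicate 1. The part of this measure in the fold changes was not tested. The tissue was checked against defining markers: albumin (Alb) averaged 86440 CPM (a gene's counts as a rate over its TMM-scaled library total) in vehicle livers and 70590 CPM with napabucasin. Cd3e, a marker of T cells, was present at a low level, 1.20 and 2.86 CPM.

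All 7 genes lie in 1 cluster on chromosome 11 of build GRCm38. The long Slfn5 comes first (82951349 to 82964840, plus strand), followed by Slfn9 (82978390 to 82991830, minus strand) and Slfn8 (83002158 to 83020810, minus strand). The short Slfn2 (83065112 to 83070678) and Slfn1 (83116849 to 83122670) and the intermediate Slfn4 (83175186 to 83190216) and Slfn3 (83191330 to 83215154) follow on the plus strand. In the GENCODE M21 annotation the longest transcripts of Slfn1 and Slfn2 have 2 exons each, and that of Slfn4 has 8.

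In a window around the start sites, the 3 long members of the 7 genes hold a stretch of sequence that the other 4 lack. It is shown here because it separates them, so the split supports nothing. The promoter of Slfn14, a long form of the same cluster outside the 7, is not given here. RefSeq promoters (GRCm38.p6, 300 bases, from 250 before to 50 after the start) were matched for all 7 genes. The core of the interferon-stimulated response element, GAAANNGAAA on either strand, was present in the promoters of the 3 long members, and in 3.44% of the 32851 promoters of the table. Capitals mark the match, and each sequence is read 5′ to 3′ along the strand of its gene.
Slfn5, chr11:82951922-82951981, plus strand: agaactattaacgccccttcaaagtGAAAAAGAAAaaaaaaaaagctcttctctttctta
Slfn8, chr11:83020824-83020883, minus strand: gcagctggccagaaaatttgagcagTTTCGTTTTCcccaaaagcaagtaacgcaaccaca
Slfn9, chr11:82991841-82991900, minus strand: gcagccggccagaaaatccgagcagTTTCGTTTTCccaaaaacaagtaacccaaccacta
In Slfn8 and Slfn9 the match lies on the opposite strand, 48 and 45 bases before the start, within promoters that are 80.8% identical. In Slfn5 it begins 155 bases before the start and runs into a row of A bases. That RefSeq start lies inside the gene's row of the deposited table.

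The short members, Slfn3 and Slfn4 lack that core in the same window. Slfn1, Slfn2 and Slfn4 share another stretch, ACTTCCTGGAG, which was noticed after the promoters had been read. It was taken as the longest run common to these 3 promoters, so its presence in them was fixed by that choice. In all, 24 of 32851 promoters hold it (0.0731%, these 3 included). Its capitals mark that stretch, and the shorter ACTTCCT within it, a binding core of ETS factors, is present in 9.35% of promoters.
Slfn1, chr11:83116721-83116781, plus strand: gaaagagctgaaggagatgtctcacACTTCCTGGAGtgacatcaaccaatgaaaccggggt
Slfn2, chr11:83065032-83065092, plus strand: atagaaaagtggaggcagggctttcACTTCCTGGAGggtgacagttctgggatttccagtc
Slfn4, chr11:83175088-83175148, plus strand: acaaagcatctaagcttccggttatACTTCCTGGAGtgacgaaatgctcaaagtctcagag
The stretch begins 74, 55 and 73 bases before the start of Slfn1, Slfn2 and Slfn4. The longest run shared by Slfn1 and Slfn4 was 15 bases, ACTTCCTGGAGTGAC. The gamma-activated site TTCNNNGAA was found in none of the 7 promoters and in 8.3% of all, and the promoter of Slfn3 held neither it, the response element core nor the whole stretch. It held 2 copies of the shorter ACTTCCT and shared a run of 9 bases, ACTTCCTGG, with Slfn4. A match of letters is a description of the window only.

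The 7 genes differed widely in level. Levels between genes are compared per length, in the deposited FPKM. Slfn2, a short member needed to keep T cells and monocytes quiescent, was the most abundant in 10 of 10 libraries, at 10.6 ± 4.39 FPKM in vehicle and 18.1 ± 5.85 FPKM in napabucasin livers (SD, n = 5 each). Slfn8 was next by the mean over all libraries (2.94 ± 1.48 and 6.83 ± 3.19 FPKM), then Slfn5 (3.71 ± 1.09 and 4.96 ± 1.23 FPKM), Slfn4 (1.29 ± 0.739 and 4.80 ± 0.809 FPKM), Slfn1 (1.97 ± 0.813 and 4.03 ± 2.31 FPKM) and Slfn9 (0.991 ± 0.258 and 1.66 ± 0.706 FPKM). Slfn3 was last in 10 of 10 libraries, at a mean of 0.0588 FPKM.

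The order in the middle was not the same in the 2 groups, and neighbours there overlapped. Slfn5 exceeded Slfn8 in all 5 vehicle libraries, whereas Slfn8 exceeded Slfn5 in 4 of 5 napabucasin libraries. Slfn4 was below Slfn1 in all 5 vehicle libraries and above it in 3 of 5 napabucasin libraries. The ranges of Slfn8 and Slfn5 overlapped in vehicle livers (1.60 to 5.25 against 2.64 to 5.29 FPKM), as did those of Slfn4 and Slfn1 in napabucasin livers (3.92 to 5.67 against 1.83 to 6.87 FPKM).

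Slfn4, an interferon-inducible intermediate form known from macrophages and other myeloid cells, had the largest fold change of the 6 genes that could be fitted. In vehicle replicates 1 to 5 it was measured at 3.85, 9.87, 5.19, 5.34 and 1.65 CPM. In napabucasin replicates 1 to 5 it was measured at 23.1, 15.7, 21.9, 19.3 and 16.4 CPM. The groups did not overlap: the lowest napabucasin library, replicate 2, lay above the highest vehicle library, also replicate 2. Its log2 fold change was 1.88 (SE 0.35, 95% interval 1.14 to 2.62). It was 1.66 when vehicle replicate 5 was left out and 2.27 when vehicle replicate 2 was. In RNA from whole liver, a change in the number of cells of a type and a change in RNA per cell cannot be told apart, here and for the genes that follow.

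Slfn3, the neighbour of Slfn4 and an intermediate form studied in T cells and in intestinal epithelium, was barely detected. It held 0, 0, 0, 1 and 3 counts in vehicle replicates 1 to 5 and 0, 5, 14, 8 and 4 counts in napabucasin replicates 1 to 5. The 2 groups overlapped, since napabucasin replicate 1 had no count, while the other 4 napabucasin libraries lay above every vehicle library. Summed per group and scaled by library size, 31 counts against 4 gave a ratio of 7.15 (95% exact binomial interval 2.53 to 27.9), an interval that covers counting error only. A count of 0 allows up to 0.138 to 0.257 CPM, depending on the library. Slfn3 did not pass the filter on low counts and has no fitted fold change. Its row is uncertain for a second reason, since 93 of its 3386 windows of 100 transcript bases are also present in the neighbouring pseudogene Gm11427. Transcripts of Slfn3 and Slfn4 were 73.3% identical over their aligned length, and 11 of 4060 windows of Slfn4 were found in other genes.

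Among the short forms, Slfn1, the founding member and an inhibitor of T cell growth, was measured at 2.14, 5.74, 4.48, 3.99 and 2.15 CPM in vehicle replicates 1 to 5. In napabucasin replicates 1 to 5 it was measured at 4.80, 3.46, 11.5, 13.0 and 5.27 CPM. Napabucasin replicates 3 and 4 lay above all vehicle libraries and the other 3 within the vehicle range. Its log2 fold change was 1.03 (SE 0.40, 95% interval 0.17 to 1.89), and 0.75 without napabucasin replicate 4.

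Slfn2 was measured at 10, 28.3, 17.1, 21.9 and 11.7 CPM in vehicle replicates 1 to 5. Napabucasin replicates 1 to 5 held 27.1, 29.2, 41.3, 38.0 and 16.8 CPM. The groups overlapped: vehicle replicates 2, 3 and 4 lay above the lowest napabucasin library, replicate 5. Napabucasin replicates 1 and 5 lay below the highest vehicle library, replicate 2. The log2 fold change was 0.77 (SE 0.30, 95% interval 0.13 to 1.41). It was 0.60 when vehicle replicate 1 was left out and 1.01 when vehicle replicate 2 was.

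Of the long forms, Slfn8 was measured at 6.67, 21.9, 12.6, 12.9 and 6.75 CPM in vehicle replicates 1 to 5. The napabucasin replicates held 51.0, 18.4, 28.5, 26.1 and 17.8 CPM. Vehicle replicate 2 alone overlapped the napabucasin range, and napabucasin replicate 1 was the highest of the 10 libraries. The log2 fold change was 1.21 (SE 0.36, 95% interval 0.44 to 1.98), and 0.89 without napabucasin replicate 1.

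Slfn9, whose transcript is 88.7% identical to that of Slfn8 over their aligned length, was measured at 4.36, 5.46, 5.97, 8.49 and 5.46 CPM in vehicle replicates 1 to 5. Its napabucasin values were 6.86, 4.82, 10.1, 13.3 and 15.0 CPM. Napabucasin replicates 3, 4 and 5 were above all vehicle libraries, and replicates 1 and 2 within their range. The log2 fold change was 0.74 (95% interval 0.09 to 1.40), and 0.55 without napabucasin replicate 5. Slfn8 and Slfn9 shared 50 windows of 100 bases and none of 150 bases, so that short reads could be split between them at few positions. More windows of 100 bases were shared with the pseudogene Slfn10-ps, 105 for Slfn8 and 181 for Slfn9. Slfn9 also shared 87 windows of 150 bases with it. With the counts of Slfn8 and Slfn9 summed, the log2 fold change was 1.08.

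Slfn5, a nuclear long form linked to interferon signalling, was measured at 19.5, 34.2, 20.5, 27.7 and 16.4 CPM in vehicle replicates 1 to 5. Napabucasin replicates 1 to 5 were at 28.5, 20.1, 38.3, 38.8 and 33.1 CPM. The groups overlapped from both sides, with napabucasin replicate 2 below 3 vehicle libraries and vehicle replicate 2 above 3 napabucasin libraries. The log2 fold change of Slfn5 was 0.42 (SE 0.23), with a 95% interval of -0.08 to 0.92 that included 0. The antisense gene Slfn5os overlaps it and held 14 counts in all, and 388 windows of Slfn5 lie in both, so their reads are not told apart without strand.

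**Figure D1:**
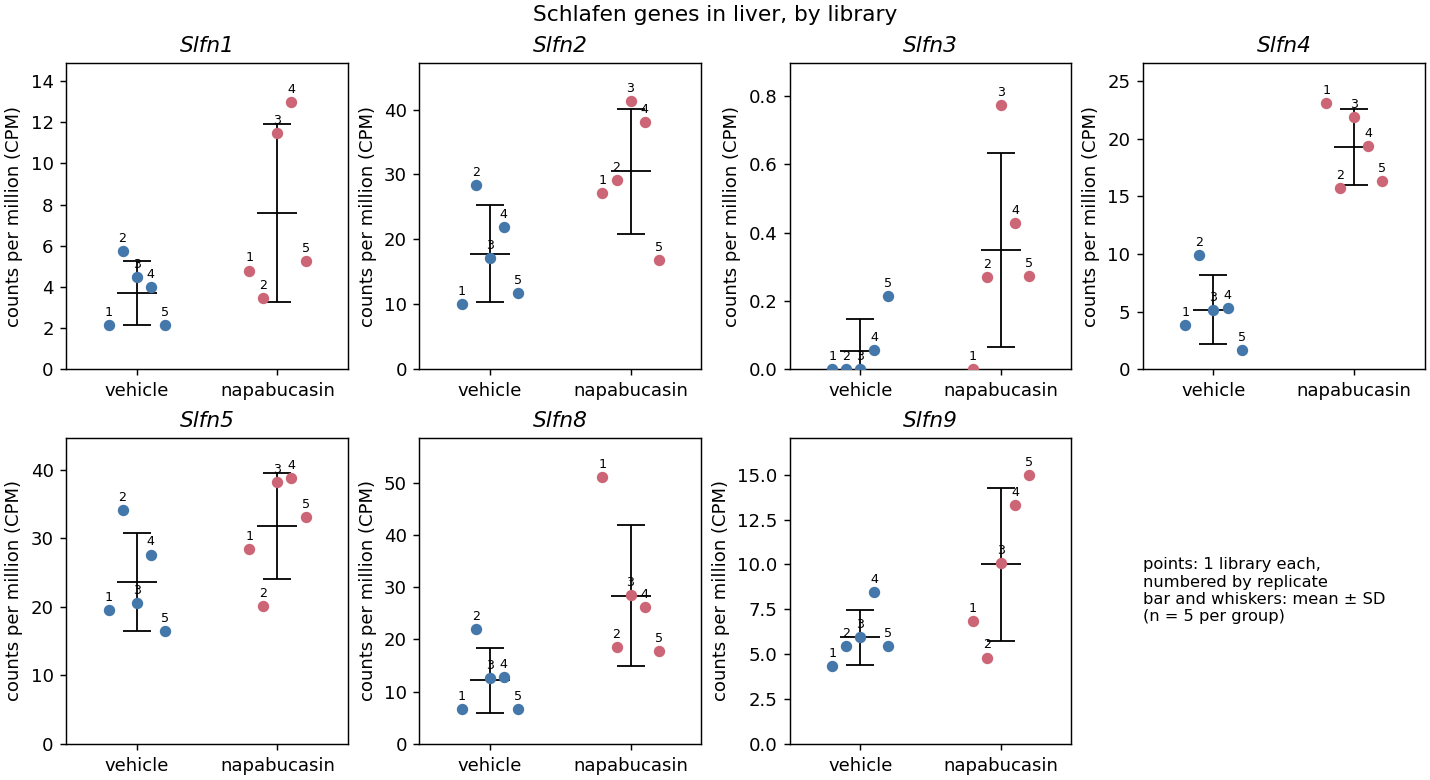
CPM of each Schlafen gene by library (vertical axes, linear from 0) in vehicle (blue) and napabucasin (red) livers; points are libraries numbered by replicate, bars and whiskers are the mean ± SD of 5. Slfn4 is the 1 gene of the 7 whose groups do not overlap, with 1.65 to 9.87 CPM in vehicle and 15.7 to 23.1 CPM in napabucasin libraries.

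Counted over the family, 6 of 7 genes passed the filter on low counts and 14244 genes did so in the whole table. All 6 had a log2 fold change above 0, as did 50.1% of tested genes, and 3 of 6 had one of at least 1, as did 3.78%. Their median log2 fold change was 0.90, beside 0.001 over all tested genes. Only Slfn4 had every napabucasin library above every vehicle library, a pattern of 1.21% of tested genes. Without vehicle replicate 2 all napabucasin values of Slfn8 also lay above the vehicle values, and without napabucasin replicate 1 those of Slfn3 did. None of the 7 had every napabucasin library below every vehicle library, as 0.934% of tested genes did.

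By edgeR's quasi-likelihood test, 5 of the 6 were higher at an unadjusted p under 0.05, beside 9.34% of all tested genes (1331 higher and 830 lower, or 1407 and 361 with library size as the only scaling). That count was 2 without vehicle replicate 1, 2 without vehicle replicate 5, 2 without napabucasin replicate 4 and 3 without napabucasin replicate 3. None of the 6 passed an adjusted p under 0.05, and neither did any of the 14244 genes, where DESeq2 called 205 genes and limma-voom 132. Slfn4 alone of the family passed in DESeq2 (1.04% of genes called higher), in limma-voom (0.688%) and in edgeR without a filter (0.0565%). As the genes were chosen on this contrast, nothing further is read from these counts.

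The sum of the family and its make-up are described by group, for genes that were chosen on this contrast. The 7 genes together took 44.4 to 105.5 CPM in vehicle and 92.0 to 152.3 CPM in napabucasin libraries, ranges that overlapped. Slfn4 held 3.72% to 9.36% of that sum in vehicle and 13.0% to 17.1% in napabucasin libraries, with no overlap, as in its CPM above. No such share was computed for other sets of genes. Slfn5 held 31.2% to 41.9% and 20.2% to 31.7%, with an overlap at napabucasin replicate 5. Napabucasin replicate 1 stood apart by its Slfn8 share, 36.1%. These shares are of CPM, which are not scaled to gene length, and were examined after the values had been seen.

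**Figure D2:**
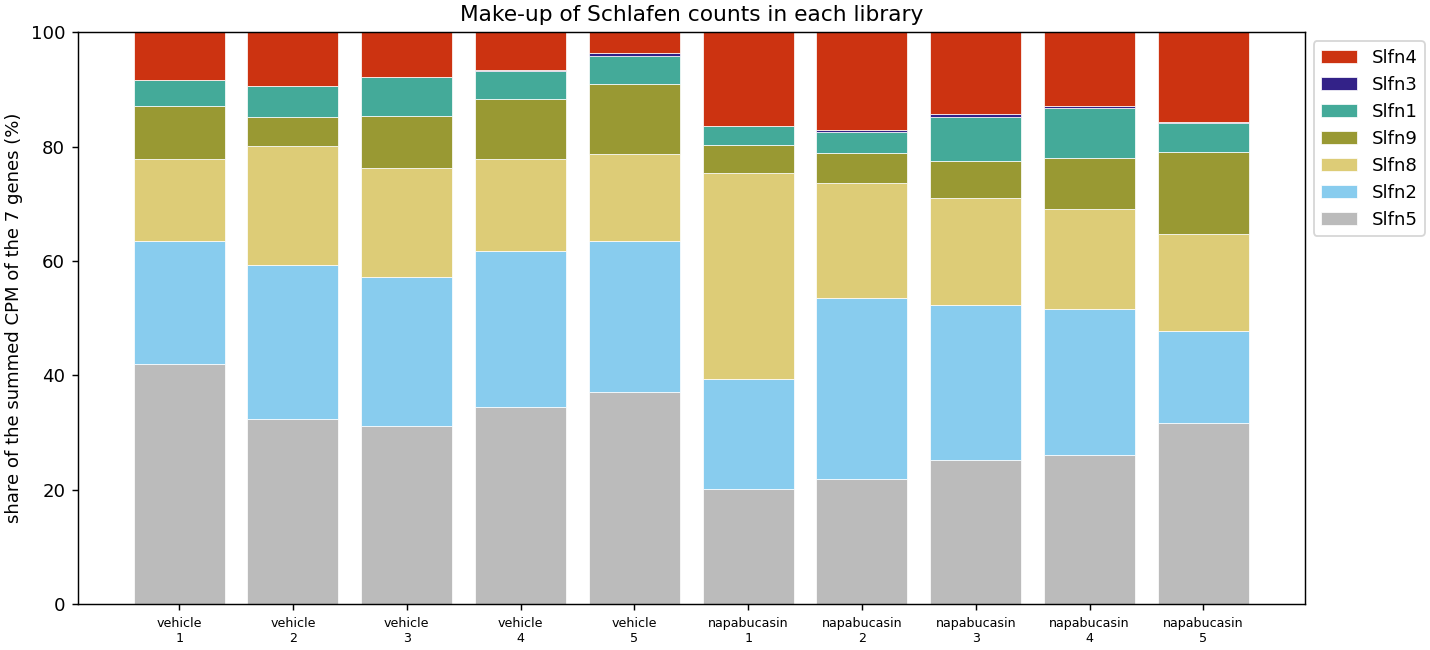
Share (%) of the summed CPM of the 7 Schlafen genes held by each gene, in 1 stacked bar per library. The top segment, Slfn4, spans 3.72% to 9.36% in vehicle and 13.0% to 17.1% in napabucasin libraries.

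Genes reported here on both sides of the cluster had fold changes near or below 0, with 1 exception. Lig3, Rffl, Rad51d and Nle1 before the cluster had log2 fold changes of -0.02, -0.30, -0.06 and -0.20. Ap2b1 beyond it had -0.28. The exception, Unc45b, a myosin chaperone gene next to Slfn5, had 0.88 (95% interval 0.19 to 1.58). Inside the cluster, past Slfn3, the pseudogene Gm11427 had 1.83 (0.76 to 2.89) on mean levels of 1.49 CPM (vehicle) and 5.32 CPM (napabucasin), and the overlapping transcript AI662270 had 0.66 (-0.37 to 1.68). The window around the cluster was drawn after the values had been seen.

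The remaining rows named Slfn were almost silent. Slfn14, a long form of the same cluster known from blood platelets, had 0 counts in all 10 libraries. The pseudogene Slfn10-ps had 11 counts in all, and Slfnl1, a Schlafen-like gene on chromosome 4, had 2.

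**Figure D3:**
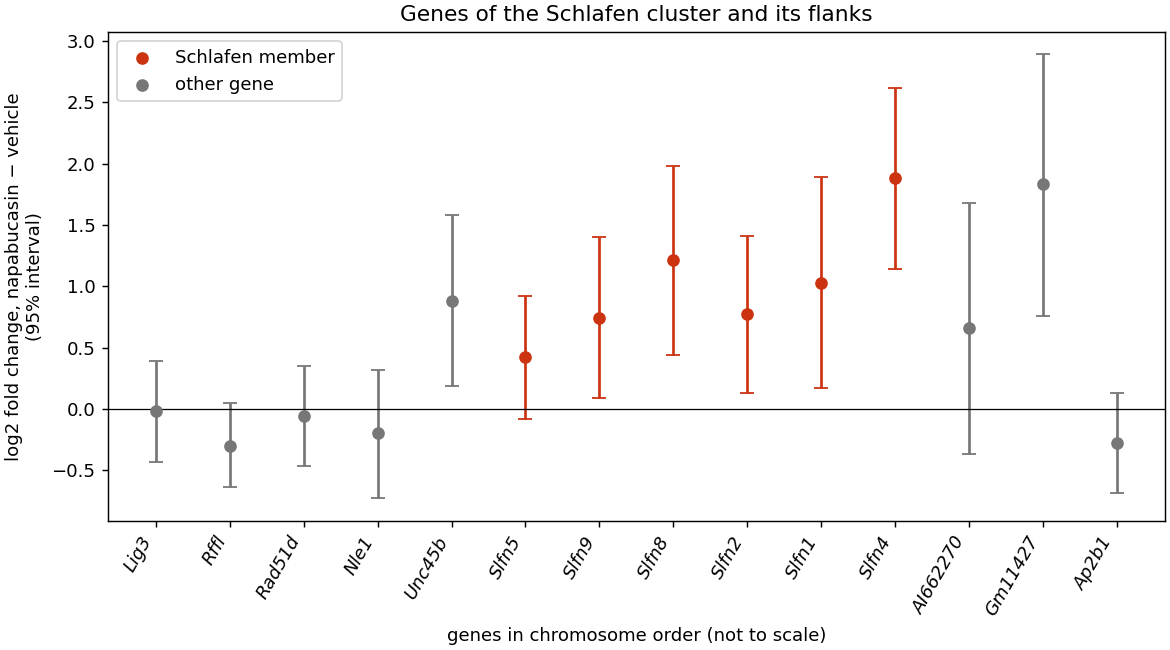
Log2 fold change, napabucasin minus vehicle, with its 95% interval (vertical axis) for genes of the Schlafen cluster and its flanks, in chromosome order and not to scale. Schlafen genes are red and run from 0.42 (Slfn5) to 1.88 (Slfn4), and 5 of the 6 grey flanking genes outside the cluster lie at or below -0.02.

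Among vehicle libraries, replicate 2 had the highest value of its group for 5 of the 6 tested genes, and replicates 1 and 5 held the bottom 2 places for 6 of 6. The napabucasin libraries were less uniform: replicate 2 was the lowest for 4 of 6, replicate 1 was the highest for 2 and in the bottom 2 for 4, and replicate 5 was the highest for 1 and the lowest for 2. The relation between genes was tested on deviations of log2 CPM from the group means, which removes the difference the genes were chosen on, by exact two-sided permutation of libraries within groups (14400 arrangements, n = 10), adjusted by Benjamini-Hochberg over the 15 pairs.

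Slfn4 and Slfn8, which lie on opposite strands of the cluster, varied together: Pearson r was 0.81 (exact permutation p = 0.000972, adjusted p = 0.0146) and Spearman's rho 0.92 (exact permutation p = 0.00118). It was 0.84 without the 2 libraries farthest from the median of Slfn4. Slfn1 and Slfn5 also varied together, with r = 0.85 (exact permutation p = 0.005, adjusted p = 0.0375), rho = 0.88 (exact permutation p = 0.0016) and r = 0.84 without the 2 farthest libraries. These were 2 of 15 pairs, and each pair passed in 5 of the 10 fits that left out 1 library, with r from 0.69 to 0.89 and from 0.80 to 0.91. Within groups the library total had r = 0.66 with Slfn4, 0.71 with Slfn8, 0.69 with Slfn1 and 0.64 with Slfn5 (adjusted p = 0.205 for each), and its part in these relations was not tested. Slfn8 and Slfn9, the most alike in sequence, had r = 0.03 (exact permutation p = 0.947). With replicate means removed as well as group means, r was 0.73 for Slfn4 with Slfn8 and 0.90 for Slfn1 with Slfn5 (exact permutation p = 0.133 and adjusted p = 0.328 for each), and 0 pairs passed. This permutation has 120 arrangements, whose lowest p is 0.00833 and whose lowest adjusted p for 1 pair alone is 0.125. Both pairs lay above both limits, and neither had an unadjusted p under 0.05. Whether the relations are weaker with replicate means removed was not tested.

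The interferon pathway, the best known inducer of the family, was read through lists of its parts. Of 13 ligand genes none passed the filter and 10, Ifnb1 among them, had 0 counts in all libraries. Interferon gamma (Ifng) was measured at 0 to 0.321 CPM in vehicle and 0 to 0.608 CPM in napabucasin libraries. Receptors had 2 of 6 genes higher at an unadjusted p under 0.05 and a median log2 fold change of 0.29, with Il10rb, a chain of the lambda interferon and interleukin-10 receptors, at 0.87 and the 2 gamma receptor chains Ifngr1 and Ifngr2 at 0.61 and -0.57. The receptor kinases Tyk2, Jak2 and Jak1 had 0.77, 0.35 and 0.12, with 2 of 3 at an unadjusted p under 0.05.

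Among the transcription factors 4 of 9 were higher at an unadjusted p under 0.05 (median 0.53). Irf7, which amplifies interferon responses, had a log2 fold change of 0.88 and Irf8, a factor of myeloid and B cells, 0.79. Stat2 and Irf9, parts of the factor that binds the response element, had 0.84 (95% interval -0.08 to 1.76) and 0.42 (-0.03 to 0.87). Feedback inhibitors had 0 of 5 (median 0.33), with Isg15 at 0.81, Usp18 at 0.43 and Socs1 at 0.33. These were the only 3 of the 5 with a log2 fold change above 0. Antiviral effectors had 24 of 34 higher and 0 lower, with a median of 0.67 and with Mx1 at 1.51, Ifit3 at 1.06 and Samd9l at 0.96. No gene of these lists passed the adjusted threshold in edgeR, and the background was 9.34% higher and 5.83% lower.

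The effector score is the mean centred log2 CPM of the 34 genes. With group means removed, its r over 10 libraries was positive with each of the 6 Schlafen genes. None of these pairs passed the adjusted threshold over the 60 pairs of gene and list. Pearson r was 0.83 for Slfn5 (exact permutation p = 0.00653, adjusted p = 0.108), 0.82 for Slfn9 (exact permutation p = 0.00722, adjusted p = 0.108) and 0.78 for Slfn1 (exact permutation p = 0.0138, adjusted p = 0.166). For Slfn4, Slfn8 and Slfn2 it was 0.53, 0.48 and 0.36. Spearman's rho was 0.78, 0.79 and 0.81 for Slfn5, Slfn9 and Slfn1. The order of the genes rested on 2 libraries: without napabucasin replicates 4 and 5, the farthest from the median score, r was 0.90 for Slfn1, 0.87 for Slfn8, 0.84 for Slfn5, 0.76 for Slfn2, 0.75 for Slfn4 and 0.69 for Slfn9.

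Genes of lymphocyte quiescence, the function for which the family is named, had 4 of 12 members above and 1 below in napabucasin livers at an unadjusted p under 0.05, beside 9.34% and 5.83% of all tested genes. Their median log2 fold change was 0.45. Ccr7, a homing receptor, had 1.41 and Il7r, a survival receptor, 1.13. S1pr1, which guides lymphocyte exit, had -0.35 and the transcription factor Foxo1, the 1 lower call, -0.65, both chosen after their values were seen. In vehicle livers S1pr1 averaged 59.2 CPM and Foxo1 26.6 CPM, beside 1.12 CPM for Ccr7 and 1.41 CPM for Il7r. In RNA from whole liver, the cells that hold these transcripts are not known to be lymphocytes. Within groups the list score had an r between -0.52 and -0.08 with the Schlafen genes.

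Lists of cell type markers were read beside the family, against the same background of 9.34% higher and 5.83% lower, and their part in the Schlafen values was not tested. Median log2 fold changes were 0.98 for T cell, 1.29 for B cell and 0.89 for NK cell genes. The T cell list had 11 of 19 tested genes higher at an unadjusted p under 0.05 and a summed level of 32.3 to 53.1 CPM in vehicle and 41.5 to 79.0 CPM in napabucasin libraries. B cell genes had 14 of 16, at 56.2 to 82.7 and 105.4 to 198.6 CPM, groups that did not overlap. NK cell genes had 8 of 12 (23.3 to 44.4 and 38.3 to 95.3 CPM), and the marker Ncr1 averaged 0.446 and 0.816 CPM.

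In the myeloid and endothelial lists a smaller share met that threshold, near the background for Kupffer cells, with medians of 0.46 for neutrophil and monocyte, 0.65 for Kupffer cell, 0.48 for dendritic cell and 0.65 for sinusoidal endothelial genes. Neutrophil and monocyte genes had 3 of 16 (48.1 to 145.4 and 78.1 to 198.9 CPM), with S100a8 at 3.65 and 3.91 CPM. Kupffer cell genes, of the resident liver macrophages, had 2 of 16 (543.6 to 2695 and 987.6 to 3434 CPM, ranges that overlapped), with Clec4f at 259.8 and 544.2 CPM. For dendritic cells it was 5 of 11 (130.7 to 277.2 and 162.4 to 307.1 CPM), with Itgax at 3.81 and 6.78 CPM. Sinusoidal endothelial genes had 5 of 16 (193.1 to 465.5 and 430.1 to 679.6 CPM), with Stab2 at 34.8 and 65.3 CPM. Hepatocyte genes had 0 higher and 2 lower of 17, with a median of -0.29. No gene of these 8 cell lists was at 0 in all libraries.

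Of the 60 pairs of a Schlafen gene with a list score, 1 passed: Slfn2 with the Kupffer cell list (r = 0.87, exact permutation p = 0.000486, adjusted p = 0.0292). Spearman's rho was 0.89 (exact permutation p = 0.00319, adjusted p = 0.181), and r was 0.88 without the 2 libraries farthest from the median score. It passed in 2 of the 10 fits that left out 1 library, those without napabucasin replicate 2 or 3, with r from 0.81 to 0.92. With replicate means removed r was 0.69 (adjusted p = 0.706), where 1 pair alone could not go below an adjusted p of 0.5. The library total moved with both: within groups it had r = 0.97 with Slfn2 (exact permutation p = 6.94e-05, the smallest these permutations can give, adjusted p = 0.00125 over 18 pairs) and r = 0.88 with the Kupffer cell score (exact permutation p = 0.000486). Its part in the relation was not tested.

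Other Schlafen genes went with other lists, none past the adjusted threshold. Slfn8 had its highest r with the dendritic cell list (0.86, exact permutation p = 0.00556, adjusted p = 0.108), whose score had r = 0.83 with the library total. For Slfn9 the T cell list gave r = -0.63 and the B cell list -0.49, while Slfn2 had 0.61 and 0.43 with them. The B cell value of Slfn9 joined opposite signs, 0.78 in vehicle and -0.80 in napabucasin libraries. Its T cell values were -0.45 and -0.67. The hepatocyte score had r = -0.68 with Slfn8 and -0.64 with Slfn4, values that rested on 2 libraries: without vehicle replicate 2 and napabucasin replicate 1 they were -0.02 and -0.21.

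**Figure D4:**
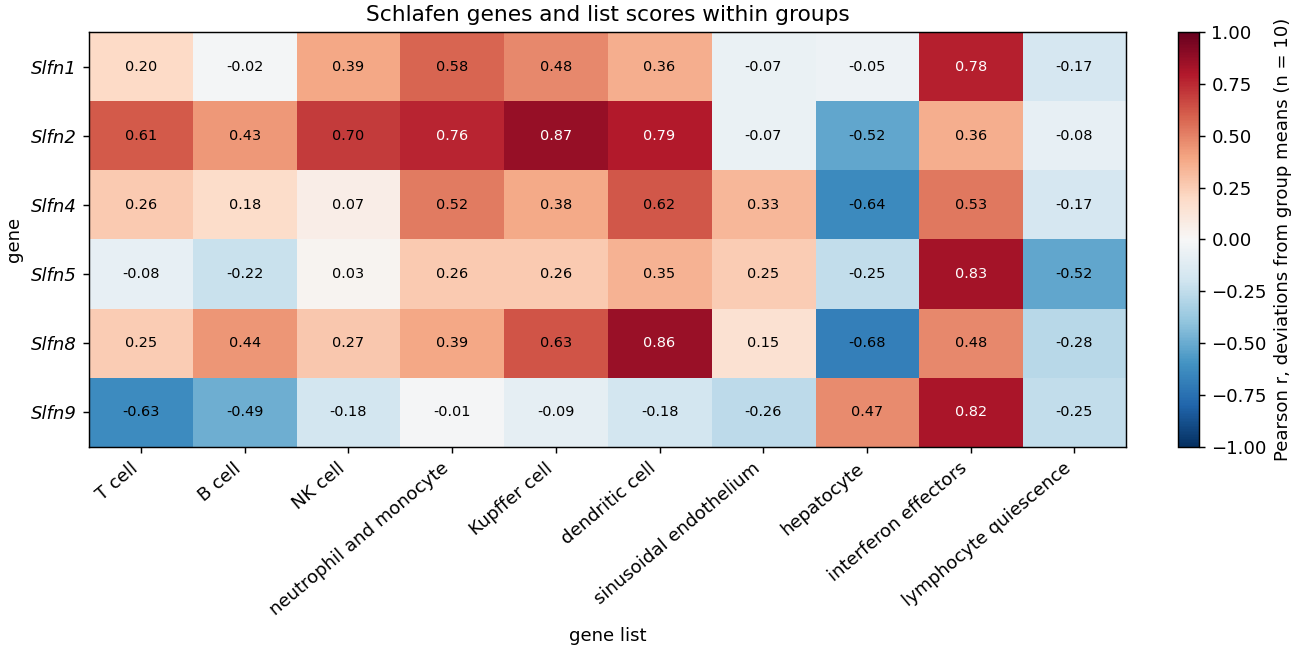
Pearson r over 10 libraries, group means removed, between the log2 CPM of each tested Schlafen gene (rows) and the score of each gene list (columns), on a colour scale from -1 (blue) to 1 (red). The highest value is 0.87, Slfn2 with the Kupffer cell list, and the interferon effector column runs from 0.36 (Slfn2) to 0.83 (Slfn5).

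The single genes that most resembled each Schlafen gene within groups were picked by r over 10 libraries from 13336 candidates that averaged 1 CPM or more. With so many genes searched, high values are found by selection, and they are given with no test. For Slfn1 they were Ly6a (0.962), an interferon-responsive surface antigen, Plac8 (0.950) and Irf7 (0.944). Slfn5 had Pelo (0.932), a ribosome rescue factor, Irf7 (0.923) and Zfp35 (0.895). Irf7 was thus named for both. As Slfn1 and Slfn5 varied together (r = 0.85), a shared like gene is not a separate result.

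Slfn2 was most like Cyba (0.990), a subunit of the phagocyte NADPH oxidase, then Sirpb1b (0.975) and Kcnk6 (0.972). Slfn4 was most like Igip (0.947), Ifi208 (0.922), of the interferon-inducible p200 family, and Vmo1 (0.918). Slfn8 was most like Ifi203 (0.978), of that same family, Scamp5 (0.972) and Cd72 (0.962), a B cell receptor regulator. For Slfn9 the likest genes were Saysd1 (0.968), Ntan1 (0.945) and the pseudogene Gm12989 (0.936).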

How the data were processed

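The authors deposited whole-number read counts per gene, not normalized, and FPKM per gene. HISAT2 2.0.5 and featureCounts 1.5.0-p3, after CASAVA, and build GRCm38 are named in the submitters' processing notes. The strand setting is not given in the sources used here, and poly-T selection and random hexamers are per the labels' protocols. Of genes shared with GENCODE M21, 98.33% had the same start and end.

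All 54532 genes entered edgeR 4.0.16 (R 4.3.3) with filterByExpr, TMM and the robust quasi-likelihood test, treatment as the only term and Benjamini-Hochberg adjustment at 0.05. Scores used log2 CPM with a prior count of 2. Alternatives used DESeq2 1.42.0, limma 3.58.1, other scalings and filters, the deposited FPKM (log2 with a pseudocount of 1 or 0.1), a replicate block and each library left out. Deviations of same-numbered libraries had correlations of 0.154, 0.227, 0.208, 0.270 and 0.278. Those of unlike-numbered libraries are not given, so whether the numbers mark pairs was not tested. The numbers enter only the block, not the edgeR fit above. On simulated data of 14244 genes, a 1.5-fold change was called in 1 of 49 genes and a 2-fold change in 12 of 49. A 4-fold change was called in 39 of 49, an 8-fold change in 46 of 48, and 4 unchanged genes were called. The counts were drawn separately for each gene, without deviations that a library shares across genes.

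The Schlafen genes and the gene lists were chosen with earlier results of these data known. Genes named are all those of the family, up to 3 per interferon or quiescence list by smallest p plus Stat2, Irf9, Ifng and Ifnb1, the 3 likest genes of each Schlafen gene, and 1 marker per cell type; some genes that this rule or the flanks would name are not reported here. The flanking genes and technical measures were added after the values were seen.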

Additional observations from a re-analysis of the deposited data

Results flagged for a closer look

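Of 34 groups of 5 values examined (the 7 Schlafen genes and 10 list scores in each group), 3 had 1 library set apart from its group, and chance sets one apart in about 1 in 20 groups. Slfn3 was highest in vehicle replicate 5, at 0.215 CPM against 0 to 0.0562 CPM in the other vehicle libraries, a gap of 0.739 of the whole range that rests on 3 counts. The Kupffer cell score was lowest in napabucasin replicate 5, at -1.10 against 0.592 to 0.798 in the others (0.891 of the range), and the same library had the lowest Slfn2 value of its group, 16.8 CPM. The score of the lymphocyte quiescence list was highest in vehicle replicate 3, at -0.0298 against -0.251 to -0.205 (0.793 of the range).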

How the results depend on the processing

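The log2 fold changes of the 6 fitted Schlafen genes kept their sign and moved by less than 1 SD of the libraries in each alternative run. Leaving out 1 library gave 0.75 to 1.26 for Slfn1, 0.60 to 1.01 for Slfn2, 1.66 to 2.27 for Slfn4, 0.32 to 0.60 for Slfn5, 0.89 to 1.54 for Slfn8 and 0.55 to 0.91 for Slfn9. On log2(FPKM + 1) those of Slfn4, Slfn1 and Slfn9 were 1.39, 0.69 and 0.38. Counts over all genes moved more. Genes past adjusted p (0 in edgeR) were 1 with library size as the only scaling, 19 without a filter, 205 in DESeq2, 132 in limma-voom, 1 on log2(FPKM + 0.1), and 0 to 18 with 1 library left out (18 without vehicle replicate 1, 3 without napabucasin replicate 5). Genes lower at an unadjusted p under 0.05 (830) were 361 with library size as the only scaling, 1412 without a filter, 1564 in limma-voom, and 457 to 1198 with 1 library left out (457 without vehicle replicate 5, 458 without napabucasin replicate 2, 522 without vehicle replicate 3). Genes higher (1331) were 885 on log2(FPKM + 0.1) and 852 to 1633 with 1 library left out (852 without napabucasin replicate 1, 867 without vehicle replicate 5). With the replicate block 1255 genes were lower and 1675 higher, 0 of 60 pairs of gene and list and 0 of 15 pairs of Schlafen genes passed, and the block changed no other call. Pairs of gene and list past the threshold (1) were 0 by Spearman's rho, 8 with library size as the only scaling and 0 to 1 with 1 library left out. Pairs of Schlafen genes (2) were 9 with library size as the only scaling and 0 to 9 with 1 library left out: 9 without napabucasin replicate 1, 5 without napabucasin replicate 5, 0 without vehicle replicate 2 or napabucasin replicate 2 or 4, and 1 without vehicle replicate 3, 4 or 5 or napabucasin replicate 3. Genes of the family whose groups did not overlap (1) were 1 to 2 with 1 library left out. The cause of these shifts was not tested. Slfn3 has no fitted fold change, and correlations with group means kept were not run as a test. Low counts limit Slfn3, and 5 libraries per group limit the precision of the others.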
